A study of Mus musculus with 10 samples.

Results

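The 9 genes followed here make, sense or break down prostaglandins: Pla2g4a, Ptgs1, Ptgs2, Ptges, Ptgis, Ptgds, Ptger2, Ptger4 and Hpgd. They were taken by symbol from a table of 55486 genes, and each symbol matched 1 row, so that all 9 were found. The question was how their RNA levels differ between CD26- and CD26+ normal mammary fibroblasts (NFs), between fibroblasts and tumor cells, and between cells grown alone and cells grown together.

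Prostaglandins are short-lived lipid signals made from arachidonic acid. Cytosolic phospholipase A2 (Pla2g4a) frees arachidonic acid from membranes, the cyclooxygenases COX-1 (Ptgs1) and COX-2 (Ptgs2) turn it into the intermediate prostaglandin H2, and terminal synthases make PGE2 (Ptges), prostacyclin (Ptgis) or PGD2 (Ptgds) from it. PGE2 acts on 4 receptors, of which EP2 (Ptger2) and EP4 (Ptger4) raise cyclic AMP, and 15-hydroxyprostaglandin dehydrogenase (Hpgd) starts its breakdown. In tumors, fibroblasts and carcinoma cells are both known sources of PGE2, which can dampen immune responses.

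The data were 10 RNA sequencing libraries from 5 gels of collagen and basement membrane extract, each kept for 7 days. NFs came from mammary glands of mTmG mice aged 8 weeks, were pooled over animals, sorted as CD26- or CD26+, grown on plastic, and mixed in equal parts. Only NFs were seeded in gel 1. Tumor line 13-MCB-17 was seeded by itself in gel 2 and with NFs in gel 4, and line 10-SJK-221 by itself in gel 3 and with NFs in gel 5. Both NF subsets and the tumor cells were then separated by color. The mTmG allele gives every cell a red membrane protein that Cre recombinase replaces by a green one. CD26- NFs stayed red, and CD26+ NFs had been exposed to a Cre adenovirus to turn them green, so virus and subset cannot be told apart. Tumor lines came from end-stage tumors of mice in which Cre under the Wap promoter, which is active in mammary epithelium, deletes floxed Cdh1. Each subset had 1 library without tumor cells and 2 with them, and tumor cells had 2 of either kind. No 2 gels had the same content, since gels 2 and 3, and gels 4 and 5, held different tumor lines. Gel and line therefore cannot be told apart, and in NF fits the spread between gels 4 and 5 includes any effect of the line. No label says that the gels came from separate animals, so the p-values measure only the spread between these libraries and not between replicate gels.

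Libraries held 14142334 to 18408940 counts, and a count of 0 allows up to 0.163 to 0.212 CPM (counts scaled to library size). That limit corresponds to 3 counts in a library and covers counting error only. The 7 fibroblast markers summed to 17833 to 39173 CPM in NFs and to 38.6 to 145 CPM in tumor cells, and the 7 epithelial markers to 3582 to 5074 CPM in tumor cells and to 0.807 and 1.05 CPM in NFs alone. Co-cultured NFs had 113 to 307 CPM of epithelial markers. Set against the tumor cells of the same gel, this gives an estimated tumor RNA share of 2.78% and 4.07% in CD26- and CD26+ NFs of gel 4, and of 2.90% and 6.30% in those of gel 5. The estimated share of NF RNA in co-cultured tumor cells was 0.634% (gel 4) and 0.352% (gel 5). Dpp4, which encodes CD26, had 4, 12 and 4 counts in CD26+ NFs of gels 1, 4 and 5 and 0, 0 and 1 counts in CD26- NFs. Ptprc and Adgre1, which define leukocytes and macrophages, did not pass 0.127 CPM in any library, while the sum of all 8 immune markers reached 303 CPM in tumor cells of gel 2, almost all of it Cd68 (299 CPM).

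In GRCm38, 4 members lie on chromosome 2. These are Ptgs1 (ENSMUSG00000047250, 36230426 to 36252272), Ptges (ENSMUSG00000050737, 30889471 to 30929863), Ptgis (ENSMUSG00000017969, 167191805 to 167240604) and Ptgds (ENSMUSG00000015090, 25466709 to 25470046). Ptgs2 (ENSMUSG00000032487, 150100031 to 150108227) and Pla2g4a (ENSMUSG00000056220, 149829618 to 149961290) are neighbors on chromosome 1, on opposite strands and 139 kb apart. Ptger2 (ENSMUSG00000037759) is on chromosome 14 (44988195 to 45003820), Ptger4 (ENSMUSG00000039942) on chromosome 15 (5206661 to 5244187) and Hpgd (ENSMUSG00000031613) on chromosome 8 (56294585 to 56321043). Values are reads over each gene's exons. Exons of other genes on the opposite strand cover 16.5% of the exon length of Ptger4, 6.08% of Ptgis, 4.74% of Ptger2 and 3.81% of Ptgs1, and since use of strand in counting is not given in the sources used here, reads from those stretches may belong to the other gene. No other gene overlaps exons of the remaining 5 members.

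Promoters are shown for the 2 cyclooxygenase genes, for Ptges and for Hpgd, because the results turn on these enzymes. Of the 9 members, 8 matched a RefSeq promoter (build GRCm38.p6), all but Ptgis, and the windows run from 250 bases before to 30 bases after the annotated start. For Ptges this start lies inside the longer gene model given above, and for Hpgd it lies at 56294552, ahead of the first base of that model (56294585). Capitals mark motif matches, searched on both strands. The motifs were an E-box with the letters CACGTG and a C/EBP site with the letters TTGCGCAA. The cyclic AMP response element (CRE) was searched by its core TGACG. The TATA box was searched as TATAAA. The GC box was searched as GGGCGG. These motifs were chosen after the sequences had been seen.
Ptgs2, chr1:150099781-150100060, plus strand: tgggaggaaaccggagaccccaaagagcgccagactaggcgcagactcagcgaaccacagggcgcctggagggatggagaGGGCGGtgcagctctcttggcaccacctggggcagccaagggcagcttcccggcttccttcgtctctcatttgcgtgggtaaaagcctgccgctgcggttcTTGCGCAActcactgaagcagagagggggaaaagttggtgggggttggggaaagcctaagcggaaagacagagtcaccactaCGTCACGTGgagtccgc
Ptgs1, chr2:36230176-36230455, plus strand: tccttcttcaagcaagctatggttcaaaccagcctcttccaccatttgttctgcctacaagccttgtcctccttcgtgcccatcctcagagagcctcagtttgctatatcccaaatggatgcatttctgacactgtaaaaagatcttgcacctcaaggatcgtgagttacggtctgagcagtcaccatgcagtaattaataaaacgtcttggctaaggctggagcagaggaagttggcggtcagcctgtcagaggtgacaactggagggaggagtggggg
Ptges, chr2:30903268-30903547, minus strand: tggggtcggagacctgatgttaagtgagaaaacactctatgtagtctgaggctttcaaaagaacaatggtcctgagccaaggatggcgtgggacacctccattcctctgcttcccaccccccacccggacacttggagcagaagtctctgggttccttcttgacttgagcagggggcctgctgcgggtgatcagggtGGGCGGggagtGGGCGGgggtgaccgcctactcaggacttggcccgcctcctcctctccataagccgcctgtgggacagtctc
Hpgd, chr8:56294302-56294581, plus strand: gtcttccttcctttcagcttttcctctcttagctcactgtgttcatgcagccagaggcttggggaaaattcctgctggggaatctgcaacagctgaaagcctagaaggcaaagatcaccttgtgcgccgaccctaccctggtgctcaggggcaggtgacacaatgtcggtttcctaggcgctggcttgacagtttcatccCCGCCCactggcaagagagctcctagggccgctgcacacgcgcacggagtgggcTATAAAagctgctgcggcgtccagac
The Ptgs2 window held a GC box beginning 170 bases and a C/EBP match beginning 69 bases before the start, and a CRE core that overlaps an E-box, beginning 14 and 17 bases after it. Ptgs1 held none of the 5 motifs. Ptges held 2 GC boxes, beginning 53 and 42 bases before the start. Hpgd held a GC box 50 bases before its RefSeq start and a TATA box from base 5 after it, which is still ahead of its gene model. Over all 32851 promoter windows of the table, 6.79% held the E-box, 0.180% the C/EBP match, 19.9% the CRE core, 13.1% the TATA box and 34.7% the GC box. A match says only that these letters are present, and occupancy was not measured.

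Ptgs2 was by far the most abundant member. Levels of different genes were compared per kilobase of exon (RPKM, CPM divided by kilobases of merged exons). Ptgs2 had 113 and 190 RPKM in NFs alone, 428 to 499 RPKM in co-cultured NFs, 277 and 707 RPKM in lone and 203 and 207 RPKM in co-cultured tumor cells. By CPM it ranked between place 10 and place 213 of all genes in each library. In NFs alone Ptges followed with 26.3 and 35.5 RPKM, ahead of Ptgis, Ptgs1 and Pla2g4a, which lay between 10.3 and 16.4 RPKM and overlapped each other and Hpgd (6.27 and 16.3 RPKM). In co-cultured NFs the order was Ptgs2, Ptges (82.1 to 147 RPKM), Ptgs1 (52.1 to 72.0 RPKM), and then Ptgis and Pla2g4a, whose ranges overlapped (30.3 to 55.9 and 28.7 to 47.3 RPKM). In tumor cells Ptgs1 was second, with 51.2 to 104 RPKM, and Ptges, at 9.79 to 19.6 RPKM, and Pla2g4a, at 5.59 to 12.2 RPKM, overlapped. The 2 receptor genes stayed low, at 0.621 to 5.03 RPKM for Ptger4 and at most 1.48 RPKM for Ptger2. Ptgds did not pass 1.66 RPKM anywhere.

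**Figure D1:**
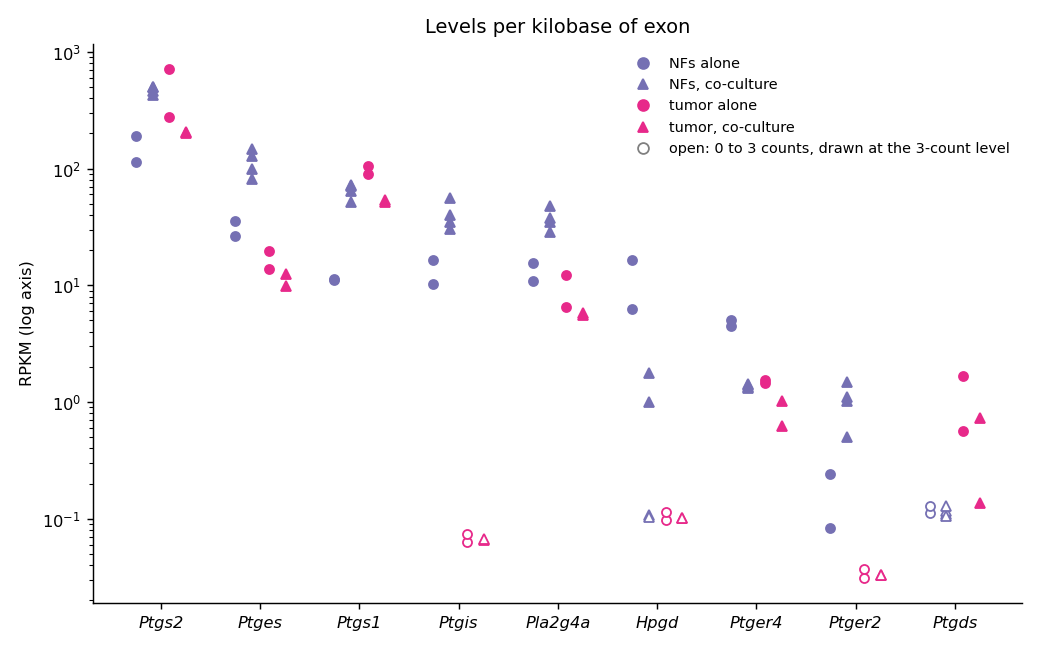
Level of each member in RPKM (log axis), 1 point per library, purple for NFs and pink for tumor cells, circles for cells alone and triangles for co-culture. Open symbols are libraries with 0 to 3 counts, drawn at the level of 3 counts. Ptgs2 was highest in every library, and Ptgis, Ptger2 and Hpgd were at open symbols in all 4 tumor libraries.

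The ratio of COX-2 to COX-1 RNA is given as a description, with no test. Ptgs2 exceeded Ptgs1 17.1-fold and 10.0-fold per kilobase in CD26- and CD26+ NFs alone, and 6.5-fold to 9.55-fold in co-cultured NFs. In tumor cells the ratio was 6.76 (gel 2) and 3.09 (gel 3) alone and 4.04 and 3.80 in co-culture, so that the cultures overlapped, and the 6.76 of gel 2 lay within the range of co-cultured NFs. Both cyclooxygenase RNAs were thus present in every library, and Ptgs2 exceeded Ptgs1 in all 10.

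Grown with tumor cells, NFs had more Pla2g4a, Ptgs1, Ptgs2, Ptges and Ptgis RNA, from enzymes that make prostaglandins, and less of the enzyme that breaks them down. Levels are given as CPM, and fold changes come from a fit over the 6 NF libraries with subset as a term. All 8 members that passed the filter on low counts differed between co-cultured NFs and NFs alone at an adjusted p under 0.05 (edgeR quasi-likelihood test), 6 higher and 2 lower. Among 15013 genes tested, 48.8% were called, 25.9% as higher and 22.9% as lower in co-culture, so that a call in this comparison is common. The share of all genes whose groups do not overlap was not counted, so separation of a member's groups is given as a description. The median log2 fold change was 1.69 over the 8 members and 0.02 over all genes tested. Ptgds, at 0 or 1 count in each NF library, did not pass the filter. In bulk RNA, fewer cells of a type and less RNA per cell cannot be told apart, and with 1 gel of NFs alone a peculiarity of that gel cannot be told apart from culture without tumor cells. CD26- and CD26+ NFs of a gel shared it but were fitted as separate samples, so the adjusted p-values are too small as statements about gels, and each SD over 4 co-culture libraries covers 2 gels. With both subsets of a gel summed, 8 members were again called, but that fit of 1 gel against 2 has 1 residual degree of freedom and borrows its spread from all genes.

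**Figure D2:**
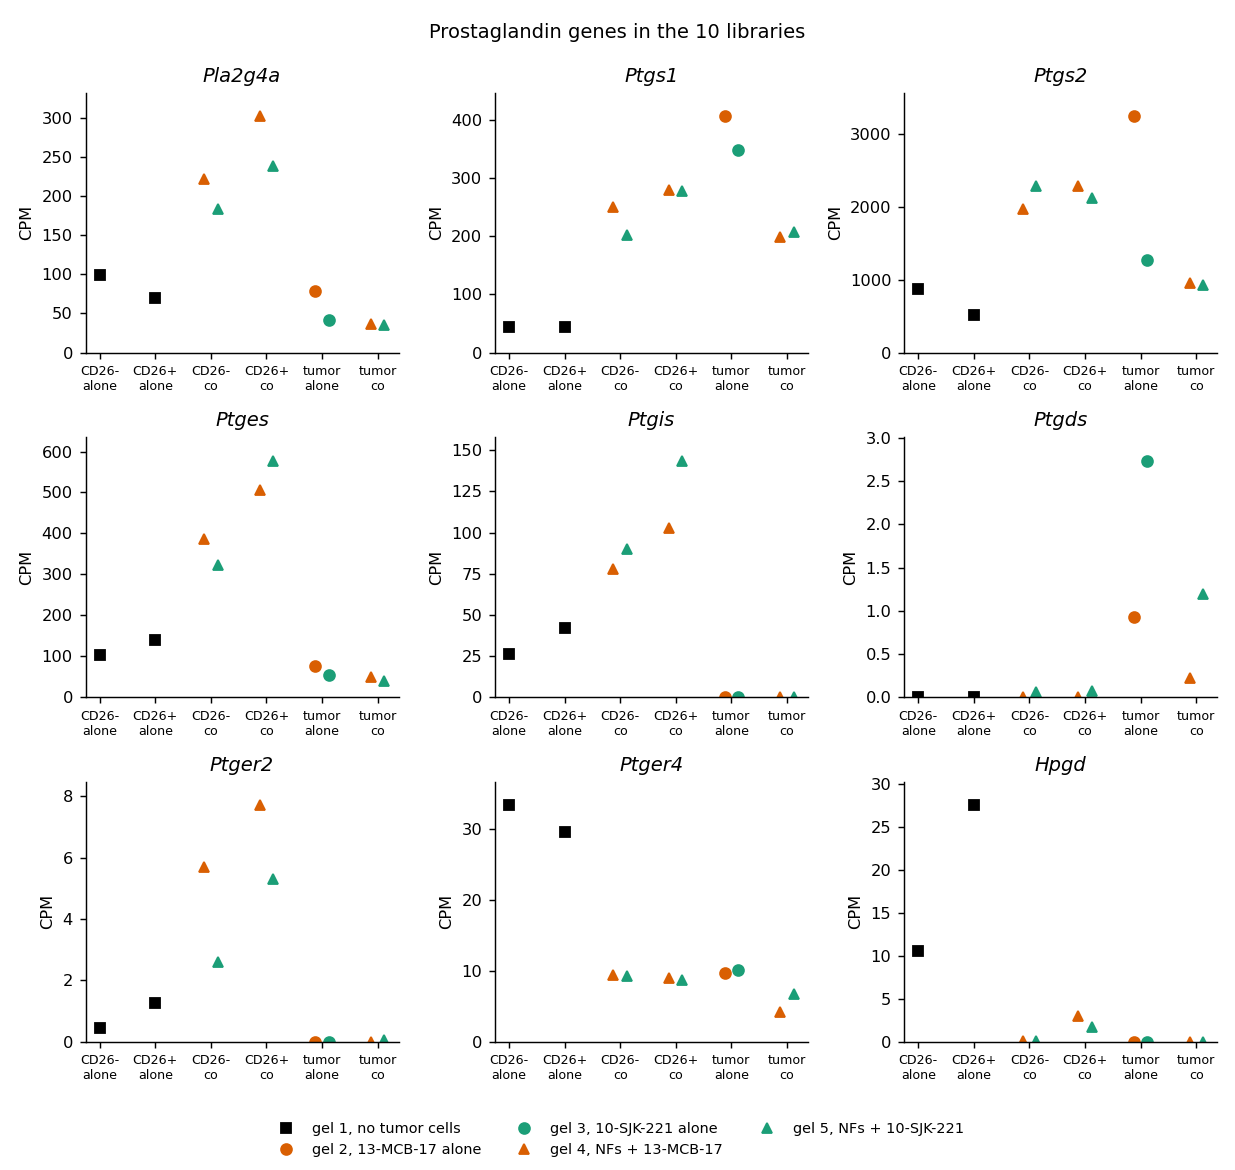
CPM of the 9 members (a panel each, linear axes from 0) in CD26- NFs, CD26+ NFs and tumor cells, alone or in co-culture (co), 1 point per library. Black squares are gel 1, orange symbols gels with line 13-MCB-17 and green symbols gels with line 10-SJK-221. Pla2g4a, Ptgs1, Ptgs2, Ptges, Ptgis and Ptger2 rose in co-cultured NFs and Ptger4 and Hpgd fell, while Ptgs1 and Ptgs2 were lower in co-cultured than in lone tumor cells.

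Pla2g4a, which supplies the substrate, had 99.5 CPM in CD26- and 69.9 CPM in CD26+ NFs alone, and 223, 302, 184 and 239 CPM in co-cultured NFs (CD26- and CD26+ of gel 4, then of gel 5). All 4 co-culture libraries were above both libraries of gel 1, and the log2 fold change was 1.51 (SE 0.22, adjusted p = 0.000373).

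Ptgs1, usually described as the constitutive cyclooxygenase, was nearly the same in the lone NF subsets, at 43.0 and 43.8 CPM. With tumor cells it had 249 and 279 CPM (gel 4) and 202 and 277 CPM (gel 5), a mean of 252 ± 35.8 CPM (SD, n = 4). This was the largest change among the synthesis genes, with a log2 fold change of 2.57 (SE 0.15, adjusted p = 1.74e-06). Ptgs2, the cyclooxygenase that is induced by inflammatory and growth signals, had 869 and 517 CPM in CD26- and CD26+ NFs alone. Co-cultured NFs had 1961 and 2283 CPM (gel 4) and 2279 and 2121 CPM (gel 5), or 2161 ± 153 CPM (SD, n = 4). Its log2 fold change was 1.72 (SE 0.22, adjusted p = 0.000171), so the COX RNA already present at a high level rose by a smaller factor than COX-1 RNA.

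Ptges, the inducible microsomal PGE2 synthase, had 104 and 139 CPM in lone CD26- and CD26+ NFs. It reached 387 and 506 CPM in gel 4 and 323 and 577 CPM in gel 5 (log2 fold change 1.91, SE 0.15, adjusted p = 1.01e-05). Ptgis, the prostacyclin synthase, had 26.4 and 42.2 CPM alone, 77.8 and 103 CPM in gel 4 and 90.3 and 144 CPM in gel 5 (1.66, SE 0.18, adjusted p = 7.35e-05). For both genes the groups did not overlap, and within either subset each co-culture library was 2.44-fold to 4.14-fold above the lone library.

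The 2 PGE2 receptors that signal through cyclic AMP moved in opposite directions. Ptger4 had 33.4 and 29.7 CPM in NFs alone and a narrow range of 8.70 to 9.39 CPM in the 4 co-cultured NF libraries (log2 fold change -1.75, SE 0.14, adjusted p = 1.25e-05). Ptger2 had 0.435 and 1.26 CPM alone (7 and 18 counts) and 5.70, 7.71, 2.59 and 5.30 CPM in co-culture (2.74, SE 0.46, adjusted p = 0.000958). Per kilobase, Ptger4 exceeded Ptger2 60.0-fold and 18.4-fold in CD26- and CD26+ NFs alone, and the ratio lay between 0.911 and 2.79 in co-culture.

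Hpgd showed the steepest change of the 8 members tested. It had 170 and 392 counts in CD26- and CD26+ NFs alone (10.6 and 27.5 CPM). CD26- NFs kept 1 count in each co-culture gel, and CD26+ NFs 46 counts in gel 4 and 24 counts in gel 5 (2.95 and 1.70 CPM). The fitted log2 fold change was -4.45 (SE 0.50, adjusted p = 8.73e-05), but it depends on how single counts are treated. Against the level of 3 counts, Hpgd was at least 59.6-fold lower in co-cultured than in lone CD26- NFs, and in CD26+ NFs it was 11.8-fold lower. Per kilobase, Ptgs2 exceeded Hpgd 30.3-fold and 6.90-fold in CD26- and CD26+ NFs alone and 284-fold and 459-fold in co-cultured CD26+ NFs.

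At the tumor RNA share estimated from the summed epithelial markers, tumor RNA would make up to 4.72% of the Ptgs1 level, 2.76% of Ptgs2, 4.92% of Ptger4 and 0.941% of Pla2g4a in a co-cultured NF library. Single markers gave other shares, in CD26+ NFs of gel 5 from 2.57% (Esrp1) to 17.7% (Krt19), and at the latter the value for Ptgs1 would be 13.3% and that for Ptger4 13.8%. With the share from the summed markers subtracted, 8 of 8 members were again called. The count was also 8 without gel 4, without gel 5 and without either library of gel 1. The 7 fibroblast markers fell from sums of 34976 and 39173 CPM to 17833 to 28454 CPM (2 rose and 3 fell). Markers of mural and smooth muscle cells went from sums of 15.2 and 15.3 CPM without to 68.2 to 183 CPM with tumor cells. Of these 4 genes Cspg4 and Des rose, Rgs5, which defines pericytes, did not pass 9.25 CPM in any library, and Cspg4 made up most of the sum. Endothelial markers summed to 4.35 and 9.76 CPM alone and to 8.06 to 24.4 CPM in co-culture (Pecam1 and Cdh5 rose and Tek fell), and immune markers to 6.46 and 13.0 against 33.4 to 73.9 CPM (Cd68, Kit and Csf1r rose, with Ptprc at 0 or 1 count and Adgre1 at 0). The part of such cells in the changes was not tested.

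In tumor cells the synthesis genes Ptgs1, Ptgs2, Ptges and Pla2g4a were lower in co-culture, and so was Ptger4, which also fell in NFs. Of 6 members tested, 5 were called and all 5 were lower in co-culture (Ptgs1, Ptgs2, Ptges, Pla2g4a and Ptger4), against 22.3% of 13197 genes called and 11.5% called as lower. The median log2 fold change was -0.92 over these 6 members and 0.01 over all genes. The fit had 4 libraries with line as a term, which leaves 1 residual degree of freedom.

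Ptgs1 had 406 CPM (13-MCB-17) and 348 CPM (10-SJK-221) in lone tumor cells and 199 and 207 CPM in co-cultured ones (log2 fold change -0.91, SE 0.12, adjusted p = 0.0013). It was thus 2.04-fold and 1.68-fold lower within the lines. Ptgs2 had 3237 and 1266 CPM alone and 948 and 928 CPM in co-culture (-1.14, SE 0.28, adjusted p = 0.021). The lone libraries differed widely, and the fall was 3.41-fold in 13-MCB-17 but 1.36-fold in 10-SJK-221.

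Ptges had 76.9 and 54.4 CPM alone and 49.5 and 38.5 CPM in co-culture (-0.59, SE 0.10, adjusted p = 0.00504). Pla2g4a had 78.3 and 41.2 CPM alone and 36.8 and 35.7 CPM in co-culture (-0.68, SE 0.19, adjusted p = 0.0354), a 2.13-fold fall in 13-MCB-17 and 1.15-fold in 10-SJK-221. Ptger4 had 9.67 and 10.2 CPM alone and 4.13 and 6.79 CPM in co-culture (-0.92, SE 0.23, adjusted p = 0.0236). In each of these 3 genes both co-culture libraries were below both lone libraries, by margins that were small for Ptges and Pla2g4a. The share of all genes with such separation was not counted.

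Ptgds had 17 and 43 counts in lone tumor cells and 4 and 21 counts in co-culture. The groups overlapped and it did not pass the threshold (log2 fold change -1.45, SE 0.45, adjusted p = 0.0512). At the share estimated from the summed fibroblast markers, NF RNA would make up to 5.72% of the Ptges and 4.53% of the Pla2g4a level in co-cultured tumor cells, and 5 members were called with it subtracted. Single markers gave shares from 0 (Thy1) to 8.94% (Pdgfra) in gel 4, with 0.802% for Col1a1, and Pdgfra was also present in lone tumor cells (67.7 and 35.6 CPM). The immune markers, mostly Cd68, summed to 102 and 303 CPM in lone and to 50.8 and 94.5 CPM in co-cultured tumor cells. Cd68 fell (-1.69, SE 0.13, adjusted p = 0.000147) while Csf1r rose from 1.79 and 7.25 to 11.6 and 12.9 CPM (1.61, SE 0.37, adjusted p = 0.0168), and the part of such cells in these falls was not tested. DESeq2 did not call Ptgs2 (adjusted p = 0.311) or Ptger4 (0.141), and RLE scaling did not call Pla2g4a (0.0591). Without gel 2 or gel 4, the log2 fold change was -0.75 for Ptgs1 (adjusted p = 0.165 and 0.173), -0.45 for Ptgs2 (0.658 and 0.662), -0.21 for Pla2g4a (0.945 in both), -0.59 for Ptger4 (0.568 and 0.554) and -0.50 for Ptges (0.554 and 0.555). Ptges also lost its call without gel 3 or 5 (-0.68, adjusted p = 0.173 and 0.175).

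**Figure D3:**
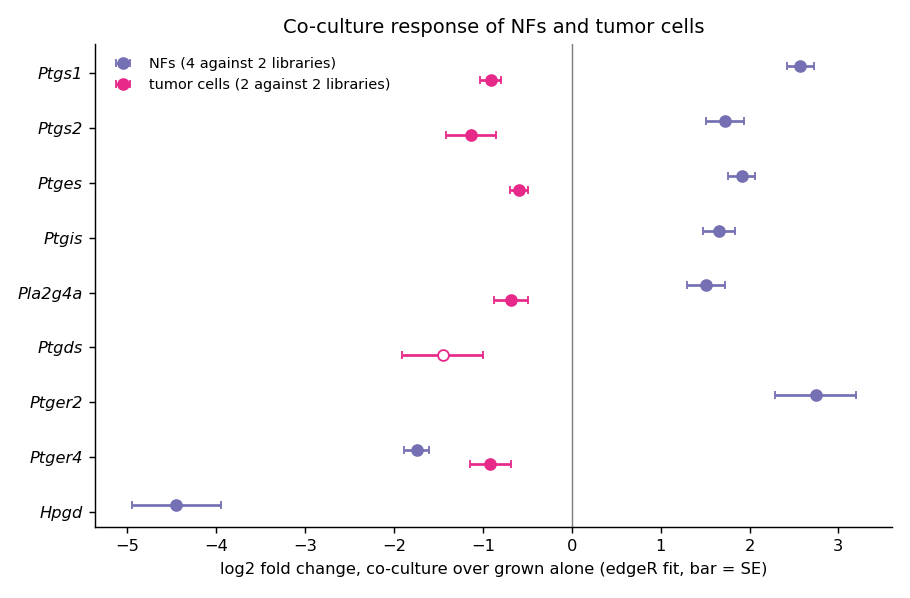
Log2 fold change of co-culture over cells grown alone for each member, with its SE, in NFs (purple) and tumor cells (pink). Filled points passed an adjusted p of 0.05 and the open point did not, and members at 3 or fewer counts in a whole group are left out. Ptgs1, Ptgs2, Ptges and Pla2g4a lie to the right of 0 in NFs and to the left in tumor cells, and Ptger4 lies to the left in both.

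The difference between the responses was tested in a fit over all 10 libraries, with NF subsets of a gel as separate samples. It passed the threshold for 5 members, 4 of them with the higher change in NFs, against 30.8% of 17048 genes called and 16.9% called as higher in NFs. The response of NFs exceeded that of tumor cells by 3.48 on the log2 scale for Ptgs1 (SE 0.21, adjusted p = 7.45e-07), by 2.87 for Ptgs2 (SE 0.36, adjusted p = 0.000113), by 2.50 for Ptges (SE 0.21, adjusted p = 7.15e-06) and by 2.21 for Pla2g4a (SE 0.28, adjusted p = 0.000116). Ptger4 fell further in NFs than in tumor cells, by -0.83 (SE 0.28, adjusted p = 0.039). This last call was lost with DESeq2 (adjusted p = 0.114), with the tumor share subtracted (0.0642), with NF subsets summed per gel (0.0605), without the lone CD26- library (0.134), without the NFs of gel 4 (0.0506) and without tumor gels 3 (0.416) or 5 (0.413). The other 4 kept their call in each of the 15 alternatives run. With lone NFs from gel 1 only, the adjusted p-values of this fit are too small as statements about gels. For Ptgis, Ptger2 and Hpgd, tumor cells were at 3 or fewer counts in both cultures, and for Ptgds NFs were, so no difference of responses can be read for these 4.

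The cell types differed in opposite directions for the cyclooxygenases in lone and in mixed gels. Lone NFs came only from gel 1 and lone tumor cells from gels 2 and 3, which held different lines. NF subsets of a gel were again fitted as separate samples, so the adjusted p-values here are too small as statements about gels. In lone gels, where 61.9% of genes tested were called between NFs and tumor cells, NFs had less Ptgs1 (log2 fold change -2.98, SE 0.17, adjusted p = 1.45e-08) and less Ptgs2 (-1.5, SE 0.27, adjusted p = 0.000386), and more Ptges (1.02, SE 0.16, adjusted p = 0.000139), Ptger4 (1.79, SE 0.20, adjusted p = 9.54e-06) and Pla2g4a (0.66, SE 0.21, adjusted p = 0.0144). Ranges of Pla2g4a overlapped, and its call was lost without the lone CD26- library (0.247) or tumor gel 3 (0.559). In mixed gels, where 59.5% of genes were called, NFs had more Ptges (3.53, SE 0.16, adjusted p = 3.48e-09), Pla2g4a (2.87, SE 0.20, adjusted p = 1.44e-07), Ptgs2 (1.36, SE 0.24, adjusted p = 0.000409), Ptger4 (0.96, SE 0.19, adjusted p = 0.00109) and Ptgs1 (0.50, SE 0.14, adjusted p = 0.00737). Ptgs1 overlapped between the cell types (202 to 279 against 199 and 207 CPM). Its call was lost with scaling by library totals (adjusted p = 0.0761) and without tumor gel 4 (0.309), as was that of Ptger4 without tumor gel 4 (0.114).

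Of the 9 members, 3 were found almost only in fibroblasts in these cultures. Ptgis had 26.4 to 144 CPM in NFs and 0, 0, 2 and 2 counts in tumor cells of gels 2 to 5, at least 194-fold higher in NFs than in tumor cells alone and at least 608-fold higher in mixed gels. Hpgd had 0 counts in all 4 tumor libraries and was at least 108-fold higher in lone NFs. In mixed gels the mean of NFs was at least 7.00-fold higher, although CD26- NFs were themselves under 3 counts there. Ptger2 had 0, 0, 0 and 1 counts in tumor cells, and was at least 4.80-fold higher in NFs alone and at least 31.2-fold higher in mixed gels. Ptgds went the other way, with 0, 0, 0, 0, 1 and 1 counts in NFs, at least 9.22-fold lower than in lone tumor cells (0.923 and 2.74 CPM).

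Between CD26+ and CD26- NFs, over the 3 gels, 1 of 8 members tested was called, beside 7.53% of 15013 genes. This was Hpgd, with 27.5 against 10.6 CPM in CD26+ and CD26- NFs of gel 1, 2.95 against 0.0606 CPM in gel 4 and 1.70 against 0.0575 CPM in gel 5. CD26+ NFs were 2.61-fold higher in gel 1 and, against the level of 3 counts, at least 16.3-fold higher in gel 4 and at least 9.83-fold higher in gel 5. The fitted log2 fold change was 2.26 (SE 0.54, adjusted p = 0.0378). With 1 count in CD26- NFs of gels 4 and 5 it depends on how single counts are treated, and it ranged from 1.69 to 4.97 over 10 alternatives. The call was lost without gel 4 (1.69, adjusted p = 0.0534) and without gel 5 (1.96, adjusted p = 0.263), although CD26+ NFs were higher in all 3 gels. CD26+ NFs also had more Kit (3.12, SE 0.65, adjusted p = 0.0246) and Kdr (2.11, SE 0.41, adjusted p = 0.0191), of the immune and endothelial marker lists. Of the 7 fibroblast markers, only Pdgfrb (-0.85, SE 0.22, adjusted p = 0.0436) and Col1a2 (-0.79, SE 0.20, adjusted p = 0.0425) were called, both as lower. The other fibroblast markers were not called in either direction, so the list as a whole is not read as lower. Co-culture libraries of CD26+ NFs held more epithelial marker RNA. The part of other cells in the Hpgd difference was not tested.

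Ptges and Ptgis were also higher in CD26+ NFs in all 3 gels, by factors of 1.31 to 1.79 and 1.32 to 1.60, but did not pass the threshold (log2 fold changes 0.40, SE 0.13, adjusted p = 0.0934, and 0.44, SE 0.16, adjusted p = 0.128). Ptges passed with DESeq2 (adjusted p = 0.0336), Ptgis without gel 4 (0.0416), and both when only library totals were used for scaling (0.0323 and 0.0378), a scaling that raised the median of all genes by 0.15. Ptger2 was 1.35-fold to 2.91-fold higher in CD26+ NFs (0.67, SE 0.37, adjusted p = 0.294) and Ptger4 1.04-fold to 1.13-fold higher in CD26- NFs (-0.27, SE 0.14, adjusted p = 0.284). Ptgs1 had ratios of 1.02, 1.12 and 1.37 in gels 1, 4 and 5 (0.06, SE 0.12, adjusted p = 0.806). Ratios within gels use CPM scaled to library totals, while the fits use TMM scaling. TMM factors over all 10 libraries were 0.916, 0.901 and 0.853 in CD26- NFs of gels 1, 4 and 5, and 1.01, 1.04 and 0.980 in CD26+ NFs. The ratios therefore lie further toward CD26+ NFs than the fitted values. The direction of small ones, such as those of Ptgs1 in gels 1 and 4, depends on the scaling.

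By CPM scaled to library totals, Ptgs2 and Pla2g4a had no common direction across gels. With TMM factors of 0.901 in CD26- and 1.04 in CD26+ NFs of gel 4, small ratios such as that of Ptgs2 there depend on the scaling. Ptgs2 was 1.68-fold higher in CD26- NFs of gel 1, 1.16-fold higher in CD26+ NFs of gel 4 and 1.07-fold higher in CD26- NFs of gel 5 (-0.37, SE 0.19, adjusted p = 0.257). Pla2g4a was 1.42-fold higher in CD26- NFs of gel 1 and 1.36-fold and 1.30-fold higher in CD26+ NFs of gels 4 and 5 (-0.04, SE 0.19, adjusted p = 0.919).

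**Figure D4:**
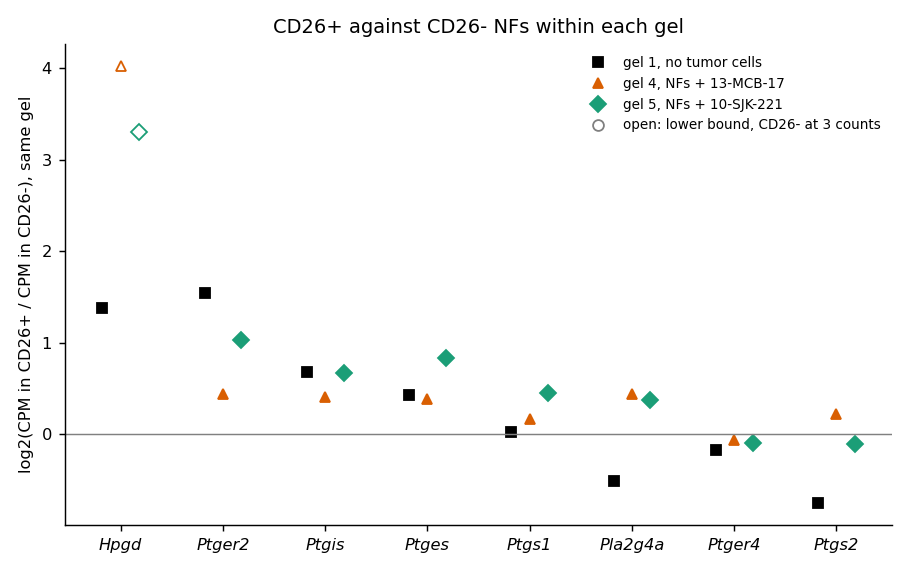
Log2 ratio of CPM (scaled to library totals) in CD26+ over CD26- NFs of the same gel, for gels 1 (squares), 4 (triangles) and 5 (diamonds). Open symbols for Hpgd are lower bounds, since CD26- NFs had 1 count there. Hpgd, Ptger2, Ptgis and Ptges lie above 0 in all 3 gels and Ptger4 below, and Pla2g4a and Ptgs2 change sides.

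Whether the subsets respond differently to tumor cells was tested as an interaction. By edgeR, 0 of 8 members passed the threshold (3 had an unadjusted p under 0.05, and DESeq2 called 0), against 0.376% of 16231 genes. The 3 were Hpgd (adjusted p = 0.0784), Pla2g4a (log2 difference of responses 0.90, SE 0.31, adjusted p = 0.41) and Ptgs2 (0.77, SE 0.33, adjusted p = 0.581). Pla2g4a rose 4.32-fold and 3.42-fold in CD26+ and 2.24-fold and 1.85-fold in CD26- NFs, and Ptgs2 rose 4.42-fold and 4.11-fold against 2.26-fold and 2.62-fold (gels 4 and 5). With the gel as a block, which pairs subsets from the same gel, Hpgd passed (adjusted p = 0.000288), as it did with scaling by library totals (0.0255). Its response in CD26- NFs is known only as a bound, so the size of this interaction cannot be given. Among the cell type markers, the mural gene Cspg4 passed in the main edgeR fit (-2.57, SE 0.40, adjusted p = 0.0144), and the part of such cells was not tested.

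Between the tumor lines, with culture as a term, 2 of 6 members were called, against 14.5% of genes. Ptges was lower in 10-SJK-221 (log2 fold change -0.51, SE 0.10, adjusted p = 0.0145) and Ptgds higher (1.75, SE 0.45, adjusted p = 0.0377). Ptgds had 0.923 and 0.226 CPM in 13-MCB-17 and 2.74 and 1.20 CPM in 10-SJK-221, so even the higher line was low. Both calls were lost with DESeq2 (adjusted p = 0.113 and 0.333) and when any single tumor library was left out and all others were fitted together. Ptgs2 was higher in 13-MCB-17 when alone but near equal in co-culture (-0.77, SE 0.28, adjusted p = 0.104). It passed without gel 4 or gel 5 (-1.43, adjusted p = 0.00902 and 0.00888). Markers of other cells also differed between the lines. In 10-SJK-221, Cd68 (-1.53, SE 0.13, adjusted p = 0.000309), Col1a1 (-1.51, SE 0.20, adjusted p = 0.002) and Pdgfra (-0.64, SE 0.17, adjusted p = 0.0394) were lower, Col1a2 was higher (1.91, SE 0.31, adjusted p = 0.00502), and their part in the member differences was not tested.

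Among 14 other genes that release arachidonic acid or handle its precursors, 11 were tested in NFs, of which 6 rose and 3 fell in co-culture (median log2 fold change 0.93), beside 48.8% of all genes called. Those with the largest changes were Faah, which breaks down the endocannabinoid anandamide (3.15, SE 0.42, adjusted p = 0.000251), Dagla, a diacylglycerol lipase (2.50, SE 0.17, adjusted p = 4.28e-06), and Pla2g5, a secreted phospholipase (2.34, SE 0.64, adjusted p = 0.0133). Faah and Pla2g5 reached at most 4.50 and 2.18 CPM in NFs, and Dagla went from 6.09 and 10.0 to 35.9 to 50.8 CPM. In tumor cells 12 were tested, and 2 fell, which is no larger a share than the 22.3% of all genes called, among them the secreted phospholipase Pla2g2e (-3.41, SE 0.53, adjusted p = 0.00289). Between subsets, 1 of 11 genes of this list passed, beside 7.53% of all genes, and it was again Pla2g2e, with the higher level in the CD26+ subset (2.63, SE 0.35, adjusted p = 0.0051).

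Of 8 other prostanoid synthases 6 were tested in NFs, and 0 passed the threshold by edgeR (0 with an unadjusted p under 0.05, and 0 by DESeq2), with a median log2 fold change of -0.12, beside 48.8% of all genes called. Ptges2 and Ptges3, the other PGE2 synthases, had 8.11 to 17.5 and 76.6 to 104 CPM in NFs. In tumor cells Akr1b3, an aldo-keto reductase that can make PGF2alpha (-0.60, SE 0.11, adjusted p = 0.00705), and Ptges3 (-0.34, SE 0.10, adjusted p = 0.0419) fell. The hematopoietic PGD2 synthase Hpgds had 0 counts in all NF libraries, and Tbxas1, the thromboxane synthase, did not pass 0.642 CPM in any library.

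Of the 7 other prostanoid receptors, which include the PGE2 receptors EP1 (Ptger1) and EP3 (Ptger3), 5 were tested in NFs, and 2 rose and 2 fell, beside 25.9% of all genes called as higher and 22.9% as lower. Ptgfr, the PGF2alpha receptor, went from 35.5 and 37.1 CPM without tumor cells to 0.636 to 1.78 CPM with them (log2 fold change -4.76, SE 0.26, adjusted p = 1.24e-06). Tbxa2r, the thromboxane receptor, fell from 7.39 and 5.76 to 2.12 to 2.76 CPM (-1.37, SE 0.26, adjusted p = 0.00188). Ptgir, the prostacyclin receptor, rose from 14.2 and 10.2 to 20.4 to 29.2 CPM (1.11, SE 0.15, adjusted p = 0.000293), and it was also lower in CD26+ than in CD26- NFs (-0.56, SE 0.14, adjusted p = 0.0378). The other that rose was Ptger1, from 3.66 and 2.46 to 3.75 to 7.45 CPM (1.02, SE 0.28, adjusted p = 0.0143), named after its values were seen. Ptgir did not pass 0.978 CPM in tumor cells, so the RNAs of prostacyclin synthase and of its receptor were both at their highest in co-cultured NFs.

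**Figure D5:**
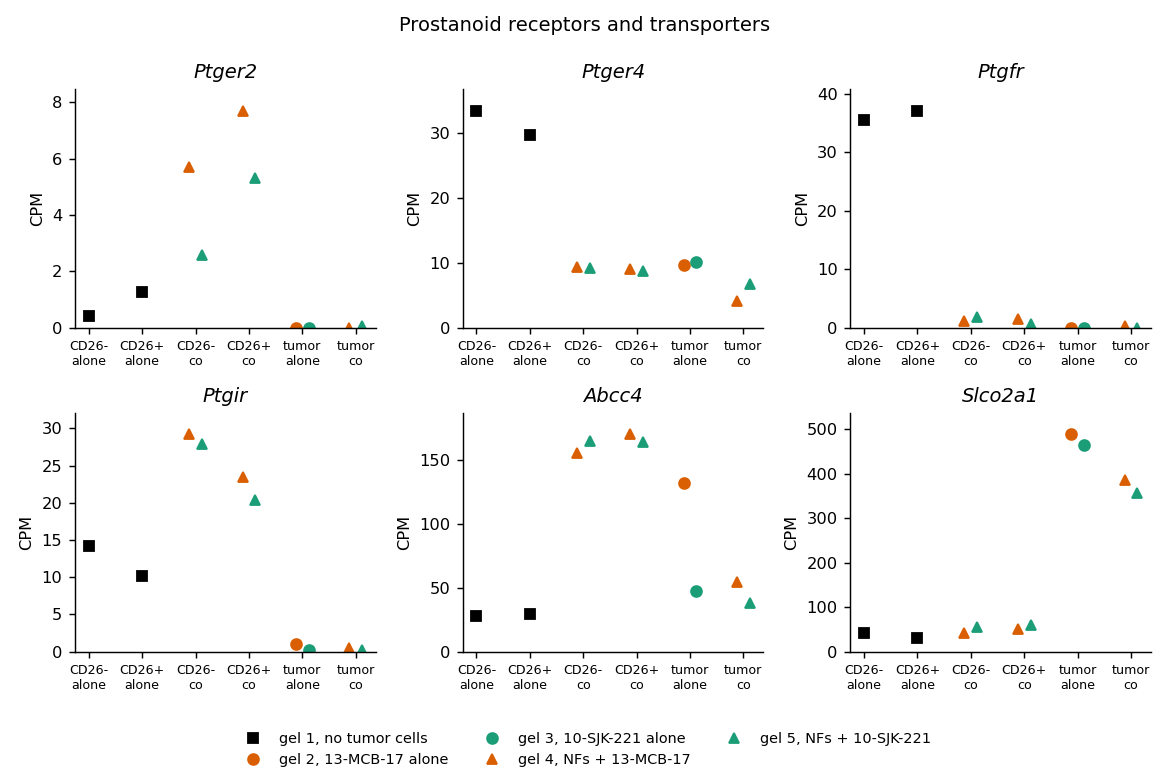
CPM of PGE2 receptors (Ptger2, Ptger4), PGF2alpha and prostacyclin receptors (Ptgfr, Ptgir) and prostaglandin transporters (Abcc4, Slco2a1), 1 point per library, linear axes from 0, symbols by gel. Ptger4 and Ptgfr fell and Ptger2, Ptgir and Abcc4 rose in co-cultured NFs, and Slco2a1 was highest in tumor cells.

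Of 5 genes for transport and breakdown, all were tested in NFs, and 2 rose and 1 fell, a share close to the 48.8% of all genes called. Abcc4, a pump that exports prostaglandins, had 27.6 and 29.7 CPM in lone and 156 to 170 CPM in co-cultured NFs (log2 fold change 2.56, SE 0.14, adjusted p = 1.2e-06). Slco2a1, the prostaglandin uptake carrier, had 42.3 and 30.7 CPM alone and 41.8 to 58.8 CPM in co-culture (0.56, SE 0.19, adjusted p = 0.0369). Tumor cells of the same gels held 356 and 384 CPM of it, and the part of tumor RNA in this rise was not tested. Ptgr2, a reductase acting after Hpgd, fell (-0.81, SE 0.14, adjusted p = 0.00096). In tumor cells Zadh2 (-1.34, SE 0.16, adjusted p = 0.000885), Abcc4 (-0.85, SE 0.20, adjusted p = 0.0186) and Slco2a1 (-0.39, SE 0.11, adjusted p = 0.0357) fell. Slco2a1 was highest in lone tumor cells (488 and 465 CPM), and the responses of NFs and tumor cells differed for Abcc4 (3.40, SE 0.29, adjusted p = 6.03e-06).

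The leukotriene and lipoxygenase genes, which use the same substrate, were low, except Lta4h (49.4 to 80.5 CPM). In co-cultured NFs 2 of 5 tested rose, among them Lta4h by 0.39 (SE 0.14, adjusted p = 0.0385), beside 25.9% of all genes called as higher. Of 12 genes that respond to cyclic AMP, all were tested in NFs, and 1 rose and 5 fell, a share near the 48.8% of all genes called. Areg, a growth factor that is also abundant in epithelium, went from 1.30 and 1.75 CPM to 37.3 to 117 CPM (5.39, SE 0.33, adjusted p = 1.98e-06), beside 186 and 276 CPM in tumor cells of the same gels, and the part of tumor RNA in this rise was not tested. Per1, a clock gene, fell by 1.28 on the log2 scale (SE 0.12, adjusted p = 3.41e-05) and Nr4a3, an immediate early nuclear receptor, by 1.19 (SE 0.15, adjusted p = 0.000215). In tumor cells 6 rose and 1 fell, beside 22.3% of all genes called, with Rgs2 (1.03, SE 0.15, adjusted p = 0.00189) and Fos (0.93, SE 0.13, adjusted p = 0.00161) rising and Areg falling (-0.67, SE 0.18, adjusted p = 0.028).

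Genes most like each member over the 10 libraries were found by Pearson's r of log2(CPM + 1) among 10937 genes that reached 10 CPM. The libraries form groups of cell type and culture and share gels, so r mainly records group levels. Closest to Ptgs2 were Txnrd1 (r = 0.941), Gk (0.925) and Myo1c (0.921), and to Ptgs1 Upp1 (0.986), Eif4ebp1 (0.986) and Slc22a4 (0.985). Ptges was most like Plxdc1 (0.986), Gorasp2 (0.983) and Slc39a6 (0.983), and Ptgis most like Twist2 (0.998), Rtn4rl2 (0.998) and A4galt (0.997). Pla2g4a was most like Lrch3 (0.975), Fyco1 (0.974) and Scpep1 (0.973), and Ptger4 most like Tgfbr2 (0.962), Garnl3 (0.960) and F3 (0.956). Nearest to Hpgd were Kng2 (0.988), Wnt16 (0.988) and P2rx6 (0.986).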

How the data were processed

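Deposited values were whole-number counts of reads per gene in 10 libraries, made by the authors from stranded mRNA libraries read on HiSeq and NovaSeq instruments. Submitters' processing notes name HISAT2 2.2.1 and GRCm38. The counter, its annotation and its use of strand are not given in the sources used here. Groups, gels and lines came from the sample labels. Members and lists were chosen with earlier results of these data known, and named list genes were the up to 3 called genes of each list with the largest change and a mean of at least 1 CPM.

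Counts were fitted with edgeR 4.0.16 (R 4.3.3): filterByExpr, TMM scaling, quasi-likelihood F test, and Benjamini-Hochberg adjustment over all genes tested, with calls at 0.05. CPM used library totals, and RPKM the merged exon length in GENCODE M21. DESeq2 1.42.0 was an alternative. Where a group had at most 3 counts, folds are bounds at 3 counts. Scripts were tested on simulated data. NF fits used subset and culture, tumor fits line and culture. The label gives the gel, so libraries of 1 gel are paired. Deviations of same-gel libraries correlated at 0.217 between NF subsets, and at 0.161 and 0.0860 between tumor cells and CD26- or CD26+ NFs, over 13500 genes. A further item of the tumor model is not reported here.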

Additional observations from a re-analysis of the deposited data

Results flagged for a closer look

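The co-culture responses of NFs and tumor cells were tested against each other over 10 libraries (edgeR quasi-likelihood test with Benjamini-Hochberg adjustment), and 5 members differed. Among 17048 genes tested, 30.8% were called, and 16.9% were called as higher in NFs. The response of NFs exceeded that of tumor cells by 3.48 on the log2 scale for Ptgs1, by 2.87 for Ptgs2, by 2.50 for Ptges and by 2.21 for Pla2g4a, and it was lower for Ptger4, by -0.83. For the first 4, all 4 co-cultured NF libraries were above both lone NF libraries and both co-cultured tumor libraries were below both lone tumor libraries. The share of all genes with such separation was not counted, so it says nothing particular about these members. For Ptger4, both cell types fell, and its call was lost with DESeq2, with the tumor share subtracted, with NF subsets summed per gel and on leaving out the lone CD26- library, the NFs of gel 4, or tumor gel 3 or 5.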

How the results depend on the processing

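Of 535 member fold changes recomputed under alternatives, 456 kept direction and side of the threshold, 60 lost and 11 gained a call, and 8 reversed. Library-totals scaling and the sums of NF subsets per gel were chosen after seeing the data. Members called in the subset comparison numbered 1 with the gel as replicate block, 2 with DESeq2, 3 with library totals and 0 to 1 on leaving out a gel. For co-culture in NFs, 3 remained past a log2 fold change of 2. The interaction had 1 with library totals and 1 with the gel block, which raised called genes from 61 to 395 and changed no other call. In tumor cells, 3 were called with DESeq2, 0 past a log2 fold change of 2 and 0 to 4 on leaving out a gel. For the lines the counts were 1 with RLE scaling, 4 with no filter, 0 with DESeq2, 0 past a log2 fold change of 2 and 0 to 2 on leaving out a library (Ptgs2 without gel 4, and Ptgs2 and Pla2g4a without gel 5). NFs against tumor cells gave 5 past a log2 fold change of 2 (6 to 9 on leaving out a library) alone, and 4 to 9 in co-culture, counts that include the 4 members near 0 in 1 cell type. The cause was not tested.

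Some small fold changes reversed. Leaving out a gel moved the log2 fold change between subsets from -0.035 (without gel 5) to 0.14 for Ptgs1 and from -0.20 (without gel 4) to 0.25 (without gel 1) for Pla2g4a, which was 0.11 with library totals. It moved the Ptges interaction from -0.051 (without gel 5) to 0.36. Between lines, leaving out a library moved Ptgs1 from -0.30 to 0.026 and Ptger4 from -0.000886 to 0.68.

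Over all genes, an added log2 fold change of 2 left 192 of 1130 calls for subset, 2047 of 7325 for culture, 418 of 2942 in tumor cells, 278 of 1910 for line, 5090 of 10551 and 4233 of 10147 for NFs against tumor cells alone and in co-culture, and 1961 of 5247 for the difference of responses. Subset had 17 calls without gel 5. The interaction had 18 with no filter, 97 with DESeq2, 123 with library totals and 20 with the tumor share subtracted. Tumor cells had 1574 with DESeq2 and 406 to 1014 without a library, and line 945 with DESeq2, 2917 with no filter and 401 to 526 without a library. Leaving out a tumor library gave 6529 and 6711 alone, 5245 and 5325 in co-culture and 2998 to 3439 for the difference. Library totals moved the splits of higher and lower calls to 1120 and 263 for subset (590 and 540), 1342 and 1047 for line (783 and 1127) and 4676 and 5881 for NFs against tumor cells in co-culture (5523 and 4624).

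Co-culture in NFs and the interaction could not be fitted without gel 1, the lone NF gel. Leave-outs with no residual degrees of freedom used a fit over all 10 libraries, which takes a lone sample to vary like the other groups. Low counts limit Ptger2, Ptgds and co-cultured Hpgd.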
